A study of Mus musculus with 2 samples.

Results

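The genes described here are 10 secreted inhibitors of Wnt signalling, *Sfrp1*, *Sfrp2*, *Sfrp4*, *Sfrp5*, *Frzb*, *Wif1*, *Dkk1*, *Dkk2*, *Dkk3* and *Sost*, in periosteal cells of the mouse. They were taken by gene symbol, and all 10 are among the 31253 features listed in both libraries. The cells were sorted as Prx1 positive from the periosteum of femurs and tibias of 8-week-old mice and captured on the BD Rhapsody system, which tags each captured mRNA with a unique molecular identifier (UMI) so that amplified copies are not counted again. The control mice were Prx1 Cre; Ai9/+, and the other mice were Prx1 Cre; Ai9/+; Piezo1 fl/fl, so that the Cre and the Ai9 reporter were present in both. There was 1 library per genotype. *Prrx1* (Prx1) Cre acts in limb mesenchyme and its descendants, and the Ai9 reporter stays on in every descendant, so that the sort says nothing about the present level of *Prrx1*. The sorted cells were of many types, and why macrophage-like and endothelial-like cells were among them was not tested. How many mice went into each library is not given in the sources used here. With no replicate library, no test can be made between genotypes, and every interval given covers counting error only.

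Wnt proteins signal through a frizzled receptor and the co-receptors LRP5 and LRP6. Secreted frizzled-related proteins, including FRZB, and WIF1 bind Wnt proteins outside the cell, whereas DKK1, DKK2 and sclerostin, the product of *Sost*, bind the LRP co-receptors. In bone, Wnt signalling favours osteoblast formation, and sclerostin from osteocytes and DKK1 are known restraints on it. DKK3 belongs to the DKK family by sequence, but its action on LRP6 is not settled.

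The control library held 6118 barcodes and 28030299 UMIs with a median of 3633.5 UMIs per barcode, and the *Piezo1* fl/fl library held 7469 barcodes and 32337308 UMIs with a median of 3327. The libraries shared 50 barcodes. After filters on genes, mitochondrial UMIs and doublets, 4418 control cells and 5084 *Piezo1* fl/fl cells were kept. Each library was clustered alone without the 10 genes or other Wnt genes among the features, and clusters were named from marker genes that include none of the 10. Of the resulting classes, 8 had at least 20 cells in both libraries. They comprised 808 control and 879 *Piezo1* fl/fl SSPC-1-like cells, 746 and 555 SSPC-2-like cells, 212 and 402 tendon-like cells, and 1622 and 1523 fibroblast-like cells. SSPC-1 and SSPC-2 are the names the study gives to the skeletal stem/progenitor populations of the fibrous and the cambium layer. The other classes were lining-like (54 and 124 cells), mural-like (294 and 363), endothelial-like (174 and 141) and macrophage-like (396 and 291). A level is given as CPM, a gene's UMIs per 1000000 UMIs of the class, both summed over its cells, with an exact 95% Poisson interval where an interval follows.

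The class names were checked against their markers. The SSPC-1 marker list summed to 8370 CPM in control SSPC-1-like cells and 6163 CPM in *Piezo1* fl/fl SSPC-1-like cells, with all 7 markers found in both. The same cells carried more of the tendon list, 15069 and 19168 CPM, led by *Chad*, and the *Piezo1* fl/fl SSPC-1-like cluster had *Lgr5*, *Shisa2* and *Wif1* among its 10 leading genes where the control cluster was led by *Crabp1*. The SSPC-2 list summed to 22089 and 12512 CPM in SSPC-2-like cells, led by *Postn*, while the preosteoblast list summed to 5823 and 11870 CPM there. *Bglap* and *Bglap2*, markers of mature osteoblasts, were among the 10 leading genes of the *Piezo1* fl/fl SSPC-2-like cluster. A mature osteoblast-like class, of 60 cells, was named in the control library only. The tendon list summed to 49573 and 34641 CPM in tendon-like cells, led by *Thbs4*, and the Pi16 fibroblast list to 1193 and 3201 CPM. The clusters behind a class name were therefore not alike in the 2 libraries. In the *Piezo1* fl/fl library 691 cells (13.6%) stayed unnamed, of which 548 formed a cluster led by *Slurp1*, against 19 cells (0.430%) in the control library.

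*Piezo1*, the mechanically gated channel whose alleles differ between the libraries, had 147 UMIs in all control barcodes and 74 in all *Piezo1* fl/fl barcodes. In kept cells its level was 5.18 CPM (4.33 to 6.14) and 2.41 CPM (1.88 to 3.06). In the classes it rested on few UMIs, 13 and 4 in SSPC-1-like cells (2.75 and 0.987 CPM), 33 and 5 in SSPC-2-like cells (6.23 and 1.47 CPM), 7 and 3 in tendon-like cells (5.58 and 1.38 CPM) and 34 and 11 in fibroblast-like cells (3.70 and 1.25 CPM). The Poisson intervals of the libraries overlapped in SSPC-1-like and tendon-like cells and not in the other two, and macrophage-like cells had 6.45 and 6.11 CPM. The exons removed by the Cre are not given in the sources used here, and UMIs from the 3′ end of a transcript outside the removed part would not report the deletion.

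Among the 8 classes, the 7 genes with enough UMIs were found mainly in the mesenchymal ones, and the blood and vessel classes held little of them. *Dkk3* was highest in SSPC-2-like cells in both libraries, *Sfrp1* and *Dkk2* in fibroblast-like cells, and *Frzb* in SSPC-2-like cells, though in the *Piezo1* fl/fl library its lead there was within counting error. *Sfrp2*, *Sfrp4* and *Wif1* had different highest classes in the 2 libraries. For *Wif1* in the *Piezo1* fl/fl library, a single cell held 138 of the 889 UMIs of the highest class, SSPC-1-like cells. Hence 4 of the 7 genes with at least 50 UMIs in each library were highest in the same class in both, a share close to the 59.2% of all 11532 genes with such counts. In *Sfrp1* and *Dkk3* the highest class was also at least 2-fold above the next in both libraries, 2 of 7 genes where 14.5% of all genes did so. *Sfrp5*, *Dkk1* and *Sost* had too few UMIs to be ranked.

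**Figure D1:**
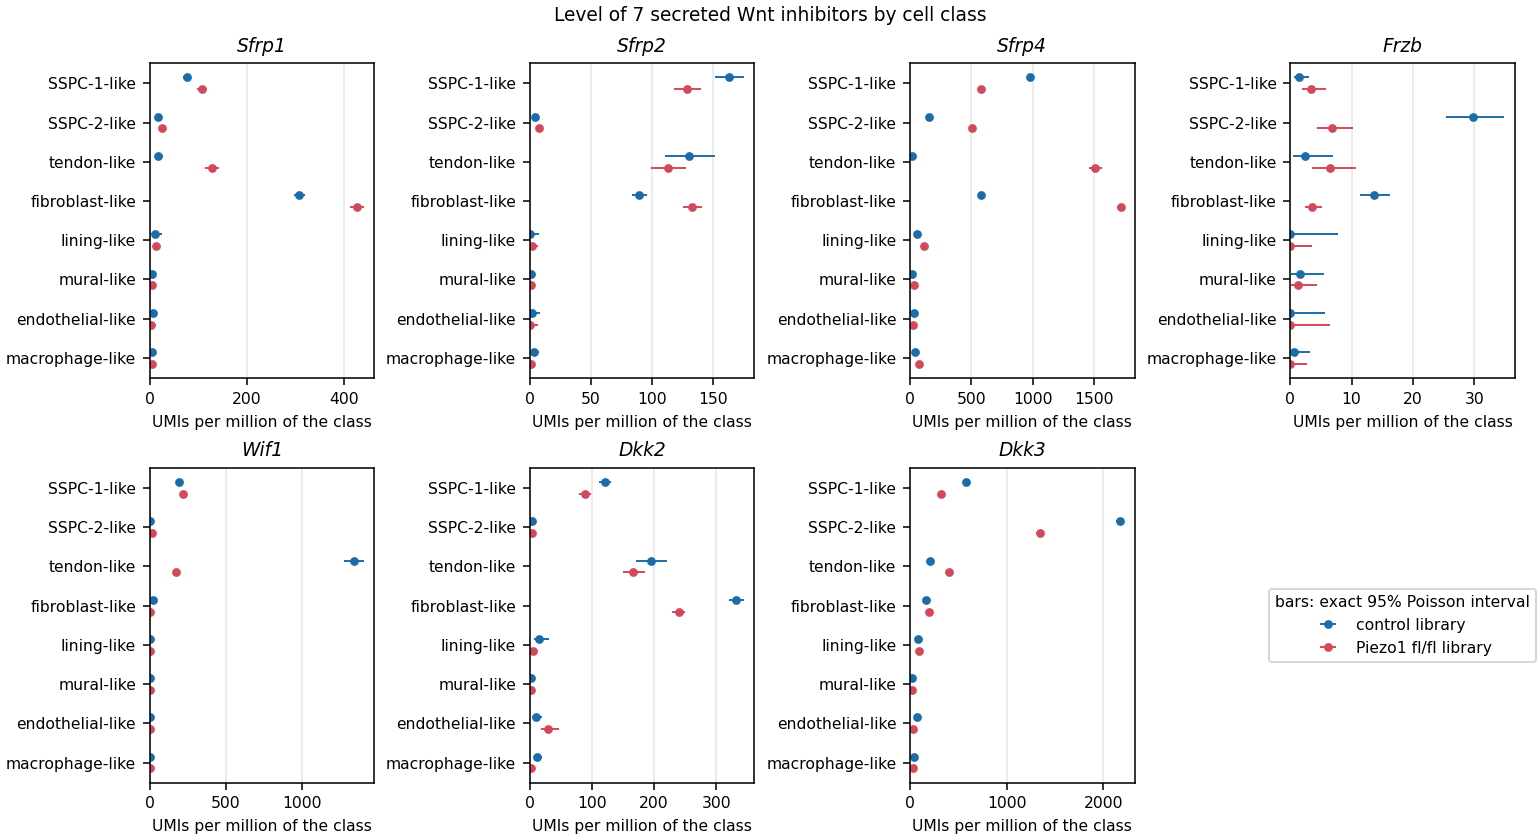
Level of 7 secreted Wnt inhibitors in 8 cell classes, in CPM of the class, in the control library (blue) and the Piezo1 fl/fl library (red), with exact 95% Poisson intervals that cover counting error only. Dkk3 is highest in SSPC-2-like cells in both libraries (2172 and 1341 CPM), whereas Wif1 is highest in tendon-like cells in the control library only (1339 against 171 CPM), and mural-like, endothelial-like and macrophage-like cells are near 0 in most panels.

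Of the genes whose products bind Wnt proteins, *Sfrp4* was the most abundant by UMI count, with 11956 UMIs (control) and 28668 UMIs (*Piezo1* fl/fl). *Sfrp4* (GRCm38, chr13:19623104-19632994, plus strand, 6 exons in its principal transcript) encodes a secreted frizzled-related protein of bone and connective tissue. In the control library its level was highest in SSPC-1-like cells at 980.5 CPM (952 to 1009), followed by fibroblast-like cells at 578 CPM, SSPC-2-like cells at 154 CPM and tendon-like cells at 16.0 CPM. In the *Piezo1* fl/fl library the order differed, with 1715 CPM (1687 to 1742) in fibroblast-like, 1507 CPM (1456 to 1560) in tendon-like, 575 CPM in the SSPC-1-like class and 502 CPM in the SSPC-2-like class. Fibroblast-like and tendon-like cells in that library differed by only 1.14-fold (1.10 to 1.18), and this order turned around at another cluster resolution. The between-library log2 ratio, *Piezo1* fl/fl over control, was 1.57 (1.52 to 1.61) in fibroblast-like cells, 1.70 (1.58 to 1.83) in SSPC-2-like cells and −0.77 (−0.84 to −0.70) in SSPC-1-like cells, where it turned to 0.18 (0.11 to 0.26) with cells typed alone by their own markers. Of the 15108 *Piezo1* fl/fl UMIs in fibroblast-like cells, 8095 lay in the cluster of 321 cells led by *Chl1* and *C3*, at 3854 CPM. The clusters led by *Ccl11* and *Hhip* had 1004 and 1188 CPM. In tendon-like cells the log2 ratio was 6.56 (5.93 to 7.28). The control level there, from 20 UMIs, was near that of control mural-like cells, so this ratio is not an exact fold. The 20 control UMIs and 3284 *Piezo1* fl/fl UMIs came from clusters that differ in their makeup, and the ratio was 0.17 when each cell was typed by its own markers. Over all kept cells the level of *Sfrp4* was 436 and 942 CPM. Mural-like cells, whose UMIs are used here as a measure of free RNA, had 13.9 and 35.4 CPM and macrophage-like cells 39.3 and 74.8 CPM, which are not read as expression. The 88 neutrophil-like cells of the *Piezo1* fl/fl library had 115 CPM. These levels differ between classes, and free RNA itself was not measured.

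*Sfrp1* (chr8:23411502-23449632, plus strand, 3 exons), another secreted frizzled-related protein, was found mostly in fibroblast-like cells, at 307 CPM (296 to 319) in the control and 426 CPM (413 to 440) in the *Piezo1* fl/fl library. The next class was 4.06-fold (3.63 to 4.54) lower in the control, SSPC-1-like cells at 75.7 CPM, and 3.34-fold (2.96 to 3.79) lower in the *Piezo1* fl/fl library, tendon-like cells at 128 CPM. Fibroblast-like cells were thus highest in both libraries by more than counting error. The class was not alike in the 2 libraries. In the control it held a cluster of 859 cells with *Slurp1* among its leading genes, at 55.9 CPM. The *Slurp1*-led *Piezo1* fl/fl cluster of 548 cells, at 42.1 CPM, stayed unnamed and outside the class. The 2 class levels are therefore not read as a difference between the libraries. At resolution 0.8 the tendon-like cluster of the *Piezo1* fl/fl library had 268 CPM, and the fibroblast-like clusters ranged from 54.0 to 579 CPM. The lead of the fibroblast-like class there was under 2-fold. The direction between libraries was not the same in typed fibroblasts, with 564 and 476 CPM in Gdf10 fibroblasts (log2 ratio −0.24, −0.35 to −0.14) and 201 and 221 CPM in Pi16 fibroblasts (0.13, 0.01 to 0.25). In tendon-like cells its level was 17.5 CPM in the control, from 22 UMIs in 6 cells, against 128 CPM from 278 UMIs in the *Piezo1* fl/fl library, a log2 ratio of 2.86 (2.23 to 3.56), which shrank to 1.09 (0.79 to 1.40) in tendon cells typed alone, at 41.3 and 87.9 CPM. SSPC-2-like cells had 16.6 and 25.7 CPM, a log2 ratio of 0.63 (0.18 to 1.07), and mural-like cells 4.63 and 5.49 CPM.

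*Sfrp2* (chr3:83766321-83774316, plus strand, 3 exons), known from fibroblasts and tendon, had close levels in 3 classes. In the control library it stood at 163 CPM (152 to 175) in SSPC-1-like, 130.0 CPM (111 to 152) in tendon-like and 89.2 CPM (83.2 to 95.6) in fibroblast-like cells. The *Piezo1* fl/fl values were 128 CPM (118 to 140), 113 CPM (99.2 to 128) and 133 CPM (125 to 141), and the highest class did not differ from the next beyond counting error. The fibroblast-like value of that library leaves out the unnamed *Slurp1*-led cluster of 548 cells, at 12.7 CPM. The control class includes the 859 cells with *Slurp1* among their leading genes, at 39.0 CPM, so the fibroblast-like values do not compare like cells. With cells typed alone by their own markers the control order turned around, with 208 CPM (192 to 225) in tendon and 141 CPM in SSPC-1 cells, and tendon cells of the other library had 121 CPM, a log2 ratio of −0.79 (−0.96 to −0.61). SSPC-2-like cells were low in both libraries, at 4.34 and 7.37 CPM. An antisense gene, *Gm26771*, overlaps *Sfrp2*, and whether counting used strand is not given in the sources used here, so that UMIs of the 2 genes might not be separate.

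*Frzb* (chr2:80411970-80447625, minus strand, 6 exons), which encodes the frizzled-related protein first known from cartilage, had 328 control and 153 *Piezo1* fl/fl UMIs. In SSPC-2-like cells its level was 29.8 CPM (158 UMIs in 115 cells) in the control against 6.78 CPM (23 UMIs in 20 cells) in the *Piezo1* fl/fl library, a log2 ratio of −2.14 (−2.84 to −1.50). That *Piezo1* fl/fl level was only 1.06-fold (0.52 to 2.22) above the 6.43 CPM of tendon-like cells. No control cell of this class had more than 6 UMIs, so the control level was spread over many cells. The fibroblast-like class behaved differently. Of its 126 control UMIs, 99 lay in 15 cells whose own markers were those of chondrocytes, and without these cells the control level fell from 13.7 to 3.00 CPM, beside 3.63 CPM in the *Piezo1* fl/fl library. The chondrocyte list itself summed to 1368 CPM in control and 16.5 CPM in *Piezo1* fl/fl fibroblast-like cells. The 27 chondrocyte-like cells that formed a cluster of their own in the *Piezo1* fl/fl library had 89.3 CPM of *Frzb*.

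*Sfrp5* (chr19:42197971-42202252, minus strand, 3 exons) was rare, with 126 UMIs in 19 barcodes of the control and 9 UMIs in 3 barcodes of the *Piezo1* fl/fl library. In the control, 45 UMIs were in 3 of the 33 perineurial-like cells, which are cells of the nerve sheath, and 44 more were in chondrocyte-typed cells of the fibroblast-like class. The highest value of a cell was 30 UMIs. No perineurial-like cluster was found in the *Piezo1* fl/fl library, so no ratio is given.

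*Wif1* (chr10:121033960-121100650, plus strand, 10 exons) encodes a Wnt-binding protein outside the frizzled-related family and was among the leading genes of the tendon-like cluster of the control library. There its level was 1339 CPM (1276 to 1405), 6.98-fold (6.43 to 7.58) above the 192 CPM of SSPC-1-like cells. Tendon-like cells of the *Piezo1* fl/fl library had 171 CPM (154 to 189), below the 219 CPM (205 to 234) of SSPC-1-like cells. The 27 chondrocyte-like cells of that library, which are outside the ranked classes, had 243 CPM (186 to 313). Chondrocytes typed alone had 649 CPM in the control and 335 CPM in the *Piezo1* fl/fl library. The log2 ratio between libraries was −2.97 (−3.14 to −2.81) in tendon-like cells and 0.19 (0.06 to 0.33) in SSPC-1-like cells. A *Wif1* UMI was found in 113 of the 212 control tendon-like cells, with up to 98 in a cell, and in 145 of the 879 *Piezo1* fl/fl SSPC-1-like cells. A single cell held 138 of the 889 UMIs of this *Piezo1* fl/fl class, where no control SSPC-1-like cell held more than 34 of 907. Intervals of counting error do not cover such a cell. The sign of the SSPC-1-like ratio and the lead of that class over *Piezo1* fl/fl tendon-like cells were not tested without it. Neither is therefore read as a result. In fibroblast-like cells the levels were 24.8 and 2.50 CPM, and 158 of the 228 control UMIs lay in the 15 chondrocyte-typed cells, without which the control level was 7.78 CPM. In SSPC-2-like cells they were 3.40 and 17.4 CPM, the latter from 59 UMIs in 18 cells of which 1 cell gave 17. The direction in SSPC-2-like cells turned around when called doublets were kept. With cells typed alone by their own markers, the higher level was not found in SSPC-2 cells themselves, with 8 control UMIs (1.91 CPM) against 0. The preosteoblasts that this typing splits off had 17.6 and 41.2 CPM (21 and 42 UMIs, log2 ratio 1.23, 0.44 to 2.06). These UMIs lay in few cells, 13 of 200 control (6.5%) and 9 of 159 *Piezo1* fl/fl preosteoblasts (5.66%), so the share of cells with a UMI was not higher. Typed SSPC-1 cells had 178 and 120 CPM, a log2 ratio of −0.56 (−0.78 to −0.35), the reverse of the clusters, and typed tendon cells of the *Piezo1* fl/fl library had 256 CPM, above SSPC-1 cells, so that the order of these classes turned around as well.

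Of the genes whose products bind the LRP co-receptors, *Dkk2* was the only abundant one, with 4232 control and 3413 *Piezo1* fl/fl UMIs. *Dkk2* (chr3:132085292-132180304, plus strand, 4 exons) was highest in fibroblast-like cells at 332 CPM (321 to 344) and 239.7 CPM (229.6 to 250.1), followed by tendon-like cells at 195 CPM (171 to 221) and 167 CPM (149.9 to 185), and SSPC-1-like cells at 121 and 88.9 CPM. In the *Piezo1* fl/fl library tendon-like cells were the higher of the first 2 classes at resolution 0.8 and under 10% mitochondrial UMIs (log2 ratio of fibroblast-like over tendon-like −0.16 in each). Levels in the *Piezo1* fl/fl library were lower in all 3 classes by less than 2-fold, with log2 ratios of −0.47 (−0.55 to −0.39), −0.22 (−0.46 to 0.02) and −0.44 (−0.64 to −0.25). SSPC-2-like cells held almost none, 20 UMIs at 3.78 CPM and 12 UMIs at 3.54 CPM, about the level of mural-like cells in the control at 2.31 CPM. With cells typed alone by their own markers, the lower *Piezo1* fl/fl level was not found in SSPC-1 cells, at 134 and 149 CPM (log2 ratio 0.16, −0.05 to 0.38), and SSPC-2 cells had 3.81 and 26.5 CPM (2.80, 1.97 to 3.70). The typed SSPC-2 values rest on few cells, 16 UMIs in 12 of 535 control cells and 53 UMIs in 11 of 296 *Piezo1* fl/fl cells.

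*Wif1* and *Dkk2* were found in the same tendon-like cells of the control library, and their promoters are shown for that reason. Among cells with at least 2500 UMIs, each thinned to that number, 34.0% of the 97 control tendon-like cells with a *Wif1* UMI also had a *Dkk2* UMI, against 8.79% of the 91 cells without *Wif1*. In the *Piezo1* fl/fl library the shares were 4.17% of 48 and 16.0% of 313 cells, the opposite order. The sequences are from RefSeq on GRCm38.p6, which lists promoters for 7 of the 10 genes, and run 5′ to 3′ on the plus strand up to the base before the annotated gene start. Capitals mark the letters TATAAA or their reverse complement.
Dkk2 promoter, chr3:132085042-132085291: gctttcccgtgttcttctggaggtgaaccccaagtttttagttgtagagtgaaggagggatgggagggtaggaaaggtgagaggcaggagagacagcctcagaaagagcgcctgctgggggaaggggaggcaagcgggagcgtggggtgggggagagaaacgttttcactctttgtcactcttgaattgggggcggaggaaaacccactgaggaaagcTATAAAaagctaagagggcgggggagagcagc
Wif1 promoter, chr10:121033754-121033959: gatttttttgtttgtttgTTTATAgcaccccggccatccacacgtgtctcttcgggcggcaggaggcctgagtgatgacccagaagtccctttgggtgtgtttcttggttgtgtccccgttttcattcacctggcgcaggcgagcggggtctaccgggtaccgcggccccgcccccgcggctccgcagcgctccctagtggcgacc
The match in the *Dkk2* promoter begins 32 bases before the gene start, and the match in the *Wif1* promoter lies on the other strand, 232 bases before the start that RefSeq gives. TATAAA was found on either strand in 3 of the 7 listed promoters and in 12.37% of 32851 promoters of 250 bases. Neither printed promoter held CTTTGA, the core letters bound by TCF/LEF factors, or TGTGGT, the core letters bound by RUNX factors, which were each found in 2 of the 7 and in 13.83% and 14.05% of all promoters. A match describes letters in the window and is not a site.

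*Dkk1* (chr19:30545863-30549665, minus strand, 4 exons) had 25 UMIs in 11 control barcodes and 15 UMIs in 4 *Piezo1* fl/fl barcodes. In the control, 9 UMIs were in chondrocyte-typed cells and 7 in the 60 mature osteoblast-like cells, and in the *Piezo1* fl/fl library 8 were in 1 cell that lay in the chondrocyte-like cluster but was a preosteoblast by its own markers. *Sost* (chr11:101962458-101967015, minus strand, 2 exons) had 0 UMIs in every barcode of both libraries, which allows up to 0.118 CPM in kept control and 0.105 CPM in kept *Piezo1* fl/fl cells. Osteocytes, its known source, lie inside the mineralised matrix. Of 8 osteocyte-associated genes, 7 were found in control mature osteoblast-like cells, led by *Dmp1* at 929 CPM, but *Mepe* was at 0 there, and both *Mepe* and *Fgf23* were at 0 in SSPC-1-like and fibroblast-like cells of both libraries. In mature osteoblast-like cells alone, the 0 UMIs of *Sost* allow up to 5.48 CPM.

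*Dkk3* (chr7:112116017-112159057, minus strand, 8 exons) had the most UMIs of the 10 genes in the control library, 17722, while the *Piezo1* fl/fl library had 10463. It was highest in SSPC-2-like cells at 2172 CPM (2132 to 2212) and 1341 CPM (1303 to 1381), followed by SSPC-1-like cells at 574 CPM in the control and tendon-like cells at 406 CPM in the *Piezo1* fl/fl library. The log2 ratio between libraries was −0.70 (−0.75 to −0.65) in SSPC-2-like cells and −0.85 (−0.94 to −0.75) in SSPC-1-like cells. Tendon-like cells had the opposite sign, 204 and 406 CPM, a log2 ratio of 0.99 (0.79 to 1.20), but this sign was lost with cells typed alone (−0.14, −0.25 to −0.03). Within the osteogenic cells of the control, *Dkk3* was not even. At a finer resolution of 0.8, a cluster of 556 cells led by *Plppr5* and *Pdzrn4* had 2437 CPM (2390.04 to 2484), whereas 246 cells clustered by *Dmp1* and *Ifitm5*, genes of mature osteoblasts, had 733 CPM (691 to 777). The 60 mature osteoblast-like cells had 126 CPM. In the *Piezo1* fl/fl library 395 cells clustered by *Mmp13* had 1503 CPM and 164 cells clustered by *Grem1*, whose best marker list was that of SSPC-1, had 819 CPM.

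**Figure D2:**
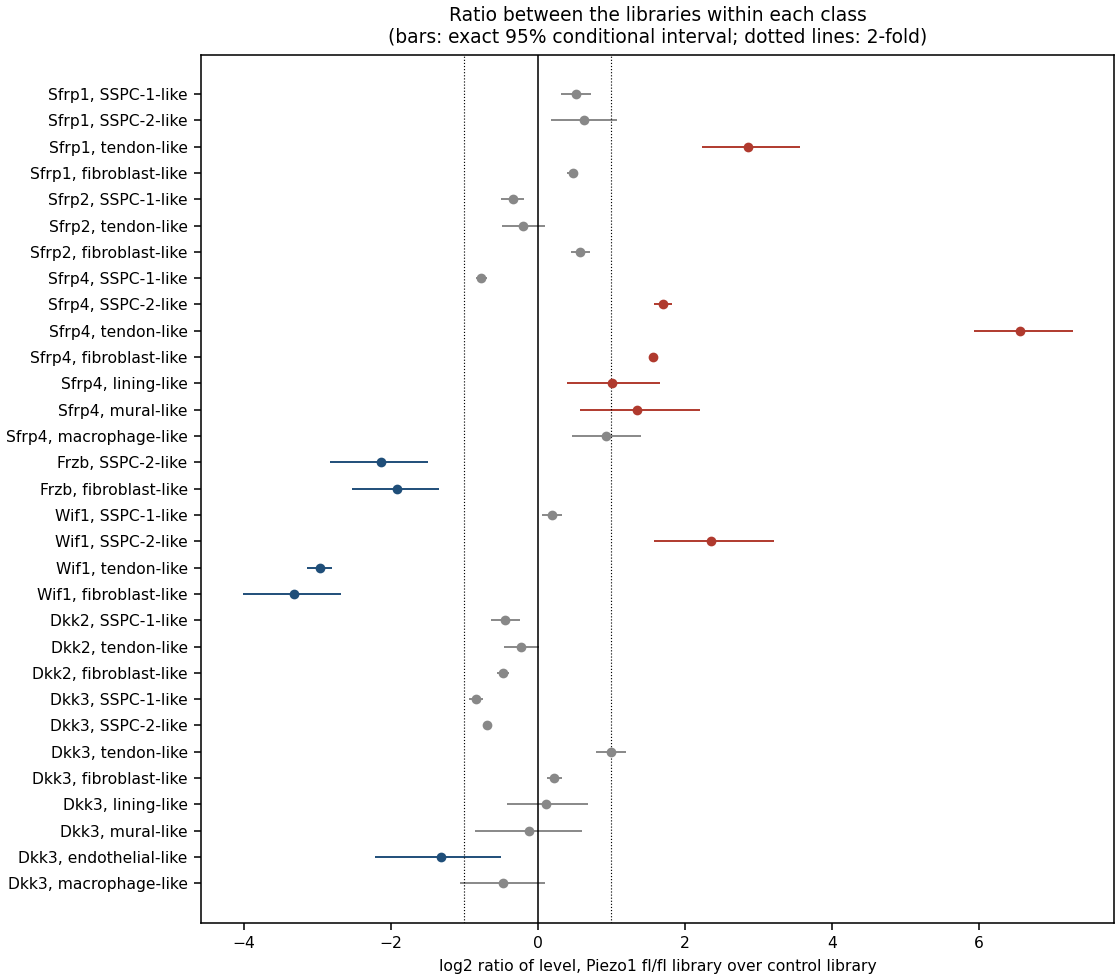
Log2 ratio of the level in the Piezo1 fl/fl library over the control library for the 31 gene and class pairs with at least 50 UMIs, with exact 95% conditional intervals (counting error only); red and blue points lie past 2-fold upward and downward, dotted lines mark 2-fold. Sfrp4 lies past 2-fold to the right in 5 classes, among them mural-like cells, used here as a measure of free RNA. It reaches 6.56 in tendon-like cells, where the control level is near that measure. Wif1 lies to the left in tendon-like and fibroblast-like cells (−2.97 and −3.31).

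Differences past 2-fold between the libraries were found for 5 of the 7 inhibitors with enough UMIs in any class. Of 31 gene and class pairs with at least 50 UMIs, 12 were past 2-fold, 7 higher and 5 lower in the *Piezo1* fl/fl library. The share of all genes was counted within each class only, not over any class or over pooled pairs. These 2 counts are therefore not read as a result about the inhibitors, and the counts by class follow with their shares. In SSPC-2-like cells 3 of 5 genes were past 2-fold (*Sfrp4* and *Wif1* higher, *Frzb* lower), where 4.28% of all genes were. The ratio of *Wif1* there turned to −0.86 with called doublets kept, and SSPC-2 cells typed alone had 8 control UMIs against 0. Mature osteoblast-like cells were set apart from this class in the control library only, with 279 CPM of *Sfrp4* and 49.3 CPM of *Wif1*. In tendon-like cells 3 of 6 were past 2-fold (*Sfrp1* and *Sfrp4* higher, *Wif1* lower) against 7.35%. *Sfrp4* was not past 2-fold in tendon cells typed alone (log2 ratio 0.17). In fibroblast-like cells 3 of 7 were past 2-fold (*Sfrp4* higher, *Frzb* and *Wif1* lower) against 3.83%. The ratio of *Frzb* there rests on the 15 chondrocyte-typed cells and turned around in 6 of 10 other settings. In SSPC-1-like cells none of 6 genes was past 2-fold, against 4.7% of all genes, and their median log2 ratio was −0.39 where that of all genes was −0.05. The medians were 0.63 against 0.08 in SSPC-2-like, 0.39 against −0.02 in tendon-like and 0.22 against −0.07 in fibroblast-like cells. In the small or vessel classes the pairs past 2-fold were *Sfrp4* in lining-like cells (57.2 and 115 CPM, with 1 of 2 genes against 7.04%), *Sfrp4* in mural-like cells (1 of 2 against 1.61%), which are the measure of free RNA, and *Dkk3* in endothelial-like cells (74.2 and 29.6 CPM, 1 of 1 against 3.66%). *Sfrp4* in mural-like cells is not read as a difference in expression. Its log2 ratio was under 2-fold in 3 settings, and in mural cells typed alone it was 0.36 (−0.15 to 0.89). Neither of 2 genes was past 2-fold in macrophage-like cells, against 4.62%. With 1 library per genotype these ratios compare libraries, not genotypes.

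The fibroblast-like class was made of clusters with unlike inhibitor profiles. In the control, the cluster led by *Sema3e*, *Anxa8*, *Uchl1*, *Pi16* and *Slurp1* (859 cells) had 55.9 CPM of *Sfrp1* and 791 CPM of *Sfrp4*, and the cluster led by *Inmt* and *Gdf10* (763 cells) had 604 CPM of *Sfrp1* and 327 CPM of *Sfrp4*. *Sfrp1* and *Sfrp4* thus had opposite orders in the 2 control clusters, and *Sfrp1* itself was among the leading genes of the latter. *Sfrp2* followed *Sfrp1*, with 39.0 and 148 CPM, and *Dkk2* was found in both at 251 and 428 CPM. Of the *Piezo1* fl/fl clusters, that led by *Ccl11* (975 cells) had 519.7 CPM of *Sfrp1* and 1004 CPM of *Sfrp4*. The cluster led by *Chl1* and *C3* (321 cells) had the highest *Sfrp4* of the fibroblast-like clusters, 3854 CPM (3771 to 3939). The cluster led by *Hhip* (227 cells) was set apart by 434 CPM of *Sfrp2* and 9.96 CPM of *Dkk2*. The unnamed *Piezo1* fl/fl cluster led by *Slurp1*, which shares *Sema3e*, *Anxa8*, *Slurp1* and *Duox1* among its 10 leading genes with the first control cluster but is outside the class, had 42.1 CPM of *Sfrp1*, 12.7 CPM of *Sfrp2*, 1048 CPM of *Sfrp4* and 74.3 CPM of *Dkk2*. At resolution 0.8 the *Sfrp4* levels overlapped, with 1206 CPM in an unnamed control cluster of 304 cells led by *Col6a5* and 768 and 974 CPM in *Piezo1* fl/fl clusters led by *Ccl11* and *Dact2*. Clusters were made in each library alone and are not matched, and their values are given as a description.

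**Figure D3:**
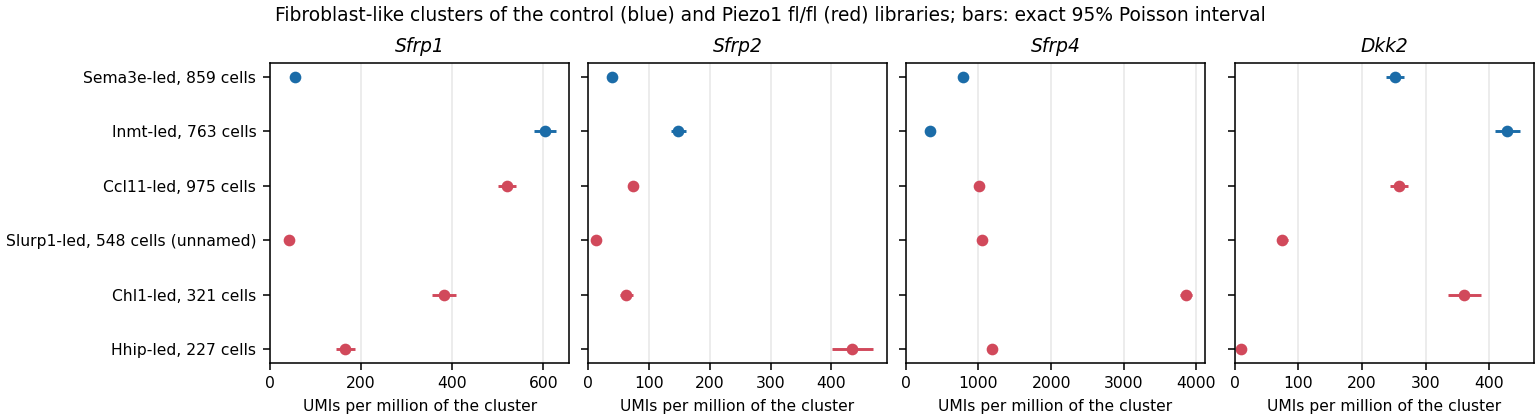
Levels of Sfrp1, Sfrp2, Sfrp4 and Dkk2, in CPM of the cluster, in the fibroblast-like clusters and the unnamed Slurp1-led cluster; blue points are control clusters, red points Piezo1 fl/fl clusters, and bars are exact 95% Poisson intervals. Sfrp4 spans 327 to 791 CPM in the control clusters and 1004 to 3854 CPM in the Piezo1 fl/fl clusters, while Sfrp1 is high or low within each library.

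Because the clusters of the 2 libraries were not alike, each cell was also typed alone from its own marker counts, without clusters. This gave 506 control and 735 *Piezo1* fl/fl tendon cells, 424 and 512 SSPC-1 cells, and 535 and 296 SSPC-2 cells, and split preosteoblasts and the 2 kinds of fibroblast. *Wif1* in tendon cells remained lower in the *Piezo1* fl/fl library, 714 against 256 CPM (log2 ratio −1.48, −1.59 to −1.37), and *Sfrp4* in SSPC-2 cells remained higher, 134 against 542 CPM (2.02, 1.87 to 2.17). *Sfrp4* was also higher in Pi16 fibroblasts, 730 against 1564 CPM, and in Gdf10 fibroblasts, 297 against 1224 CPM. In tendon cells, however, *Sfrp4* was 549 and 616 CPM, a 1.12-fold ratio. The tendon-like clusters gave 94.5-fold, over a control level near that of control mural-like cells. In SSPC-1 cells *Sfrp4* was 988 and 1123 CPM, the opposite direction to the clusters. *Dkk3* stayed lower in SSPC-2 cells, 2494 and 1654 CPM, did not differ beyond counting error in preosteoblasts, 946 and 899 CPM (−0.07, −0.20 to 0.05), and was 264 and 321 CPM in mature osteoblasts. In tendon cells *Dkk3* was 411 and 373 CPM, so that its higher level in *Piezo1* fl/fl tendon-like clusters was not seen there. *Frzb* in SSPC-2 cells was 29.3 and 7.50 CPM, and in the 23 and 25 chondrocytes 386 (314 to 470.0) and 62.8 CPM (32.4 to 109.7). The chondrocyte values rest on few cells, 100 UMIs in 8 control and 12 UMIs in 5 *Piezo1* fl/fl cells. *Dkk2* and *Sfrp2* moved in opposite directions in Gdf10 fibroblasts, with 304 and 125 CPM of *Dkk2* and 104 and 252 CPM of *Sfrp2*. The *Piezo1* fl/fl fibroblast-like clusters were not alike in these genes. The *Hhip*-led cluster had 434 CPM of *Sfrp2* and 9.96 CPM of *Dkk2*, and the *Ccl11*-led cluster 74.0 and 258 CPM.

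**Figure D4:**
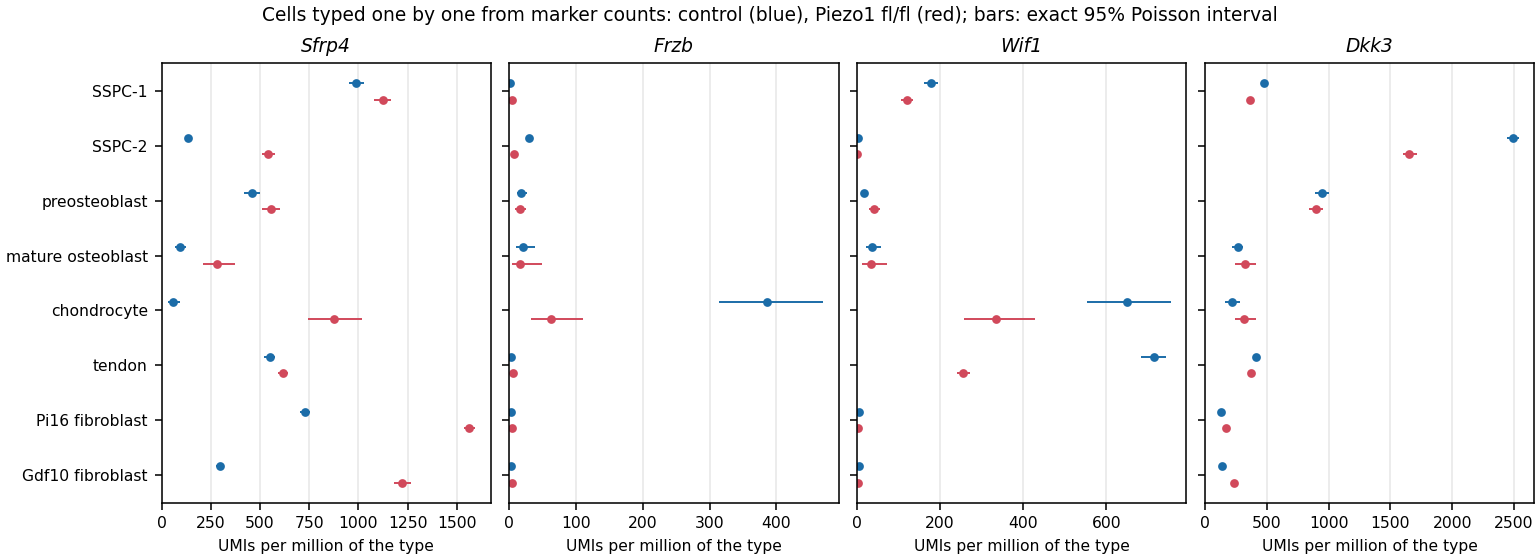
Levels of Sfrp4, Frzb, Wif1 and Dkk3, in CPM of the type, when each cell was typed alone from marker counts; blue is the control and red the Piezo1 fl/fl library, with exact 95% Poisson intervals. Sfrp4 in tendon cells is close in the libraries (549 and 616 CPM), unlike in clusters, while Wif1 in tendon cells (714 and 256 CPM) and Dkk3 in SSPC-2 cells (2494 and 1654 CPM) stay lower in the Piezo1 fl/fl library.

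The share of cells with a UMI, at an equal depth of 2500 UMIs per cell, is given beside that of mural-like cells, which serve as a measure of free RNA. Cells under 2500 UMIs were left out, among them 77 of 808 control and 131 of 879 *Piezo1* fl/fl SSPC-1-like cells. *Dkk3* was found in 92.3% of control and 85.0% of *Piezo1* fl/fl SSPC-2-like cells, against 3.24% and 3.91% of mural-like cells. *Wif1* was found in 51.6% and 13.3% of tendon-like cells and in 0.810% and 0% of mural-like cells, so that fewer *Piezo1* fl/fl cells had a UMI. *Sfrp4* was found in 53.9% and 34.9% of SSPC-1-like cells, 21.7% and 46.3% of the SSPC-2-like class, and 32.8% and 52.8% of fibroblast-like cells, against 4.45% and 5.54% of mural-like cells. *Sfrp1* reached 23.0% and 33.9% of fibroblast-like cells and *Dkk2* 24.6% and 23.9%, where the *Piezo1* fl/fl class leaves out the *Slurp1*-led cluster. At least 1 of the 10 inhibitors was found in 93.0% of control SSPC-1-like cells, 94.8% of SSPC-2-like cells, 72.9% of tendon-like and 69.2% of fibroblast-like cells, and in 11.3% of mural-like cells. The *Piezo1* fl/fl shares were 81.4%, 93.7%, 78.9%, 81.8% and 10.7% in the same order. At least 3 were found in 23.1% of control SSPC-1-like cells but in 2.38% of control SSPC-2-like cells, whose inhibitor UMIs were mostly of *Dkk3* (11506) and *Sfrp4* (817). The *Piezo1* fl/fl shares with at least 3 were 14.7% and 3.35%, beside 18.8% of tendon-like and 17.6% of fibroblast-like cells there and 10.1% and 11.04% in the control.

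**Figure D5:**
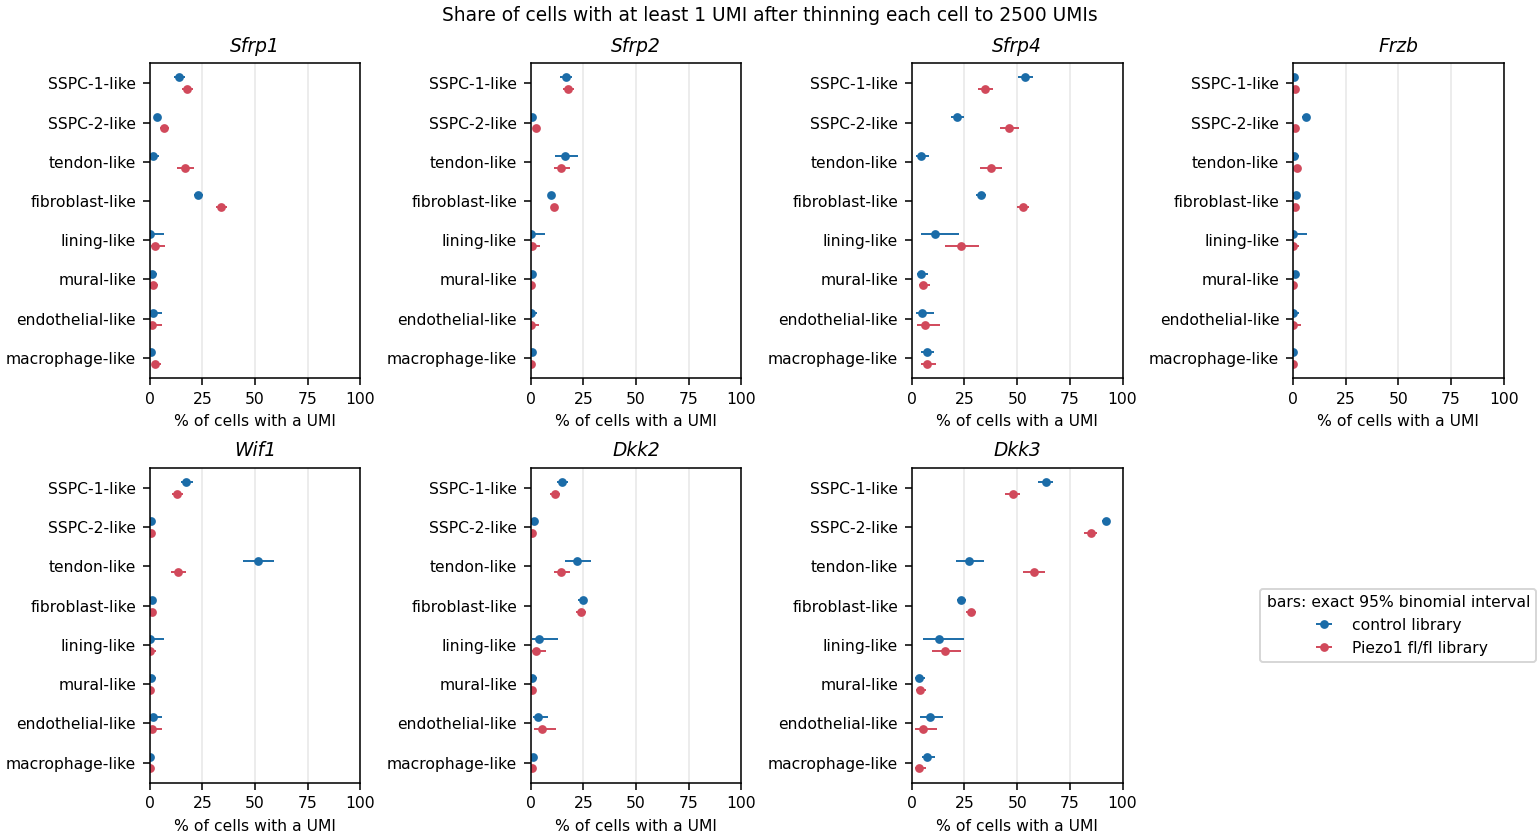
Percent of cells with at least 1 UMI of each gene after thinning to 2500 UMIs, with shallower cells left out, by class, in the control (blue) and Piezo1 fl/fl (red) libraries, with exact 95% binomial intervals. Dkk3 is found in 92.3% and 85.0% of SSPC-2-like cells and Wif1 in 51.6% and 13.3% of tendon-like cells, while shares in mural-like and macrophage-like cells stay below 8%.

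Cells that held a given inhibitor also differed in which others they held. In fibroblast-like cells with an *Sfrp1* UMI, *Dkk2* was found in 46.9% of 339 control and 36.2% of 470 *Piezo1* fl/fl cells, against 17.9% and 17.6% of cells without *Sfrp1*. In control SSPC-1-like cells *Sfrp2* was found in 33.1% of the 127 cells with *Wif1* and in 13.1% of those without, while in the *Piezo1* fl/fl library the shares were 21.4% and 17.2%. *Sfrp2* and *Dkk2* went together in the same class, with *Sfrp2* in 38.5% of the 109 control cells with *Dkk2* and in 12.7% of those without. In *Piezo1* fl/fl tendon-like cells *Sfrp4* was found in 16.7% of the 48 cells with *Wif1* against 40.6% of the 313 without, and *Sfrp1* in 50% of the 52 cells with *Dkk2* against 11% of those without. These shares are over cells of the same library, which are not replicates, and carry no test.

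The genes whose pattern over the 8 classes was most like each inhibitor were taken by the smaller of the 2 Pearson correlations of log2(CPM + 1), among 9294 genes with at least 200 UMIs in each library. For *Wif1* they were *Angptl7*, *Faim2* and *Cilp2*, with smaller correlations of 0.94, 0.94 and 0.93. *Cilp2* is one of the markers used to name tendon-like cells, and *Angptl7* is the gene the study uses to label SSPC-1, although here it was among the 10 leading genes of the tendon-like cluster in both libraries and of neither SSPC-1-like cluster. For *Dkk3* they were *Thbs2*, *Ptpn13* and *Zfp469* (0.94, 0.94 and 0.94), and for *Sfrp2* *Comp*, *Svep1* and *AW551984* (0.96, 0.96 and 0.95). *Comp* and *Thbs2* encode matrix proteins of the thrombospondin family. For *Sfrp1* they were *Entpd2*, *Abca8a* and *Mst1r* (0.94, 0.94 and 0.92), for *Dkk2* *Arhgap21*, *Il33* and *Fbn1* (0.94, 0.92 and 0.91), and for *Sfrp4* *Col6a5*, *Rtl3* and *Ssr3* (0.90, 0.87 and 0.85). With 8 points that share a library, and with several blood and vessel classes near 0, such values are a description.

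Among 70 other Wnt pathway genes, several ligands and targets were past 2-fold lower in *Piezo1* fl/fl SSPC-1-like cells. There 3 of 5 ligands or R-spondins with enough UMIs were past 2-fold lower in the *Piezo1* fl/fl library and none higher, beside 4.7% of all genes. *Wnt16*, the highest ligand in the control, was 329 and 79.0 CPM (log2 ratio −2.06, −2.24 to −1.88), *Wnt5b* was 25.8 and 10.1 CPM, and *Rspo3*, which enhances Wnt signalling, was 63.3 and 14.1 CPM. *Wnt5a* was 205 and 106 CPM. Among 9 targets, *Sp7*, an osteoblast transcription factor, was 22.0 and 3.46 CPM, *Ccnd1* 118 and 45.4, *Tnfrsf19* 39.3 and 13.8 and *Nkd1* 35.3 and 17.0, all past 2-fold lower, and *Ccn5* was past 2-fold higher at 60.5 and 169 CPM. *Ccn4* was the highest target in the control at 133 CPM. Among 17 receptors, *Lgr4* (19.9 and 57.5 CPM) and *Lgr5* (30.5 and 79.5 CPM), receptors of R-spondins, were past 2-fold higher, and *Lrp6* was the highest at 796 and 728 CPM. Among 7 other inhibitors, *Shisa3* was lower at 13.1 and 1.73 CPM. *Lgr5* was the first leading gene of the *Piezo1* fl/fl SSPC-1-like cluster, and these Wnt genes were not measured under another grouping of the cells.

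In SSPC-2-like cells, 2 of 7 ligands were past 2-fold lower, *Wnt16* at 286 and 125 CPM and *Rspo3* at 36.1 and 12.1 CPM, and none of 16 receptors was past 2-fold in either direction, where 4.28% of all genes were. *Kremen1*, a receptor of DKK1 and DKK2, was the highest receptor at 369 and 299.7 CPM. *Igfbp4*, a binding protein of insulin-like growth factors that also restrains Wnt signalling, was 116 and 334 CPM, and *Trabd2b*, which encodes a protease that cleaves Wnt proteins, was 2.45 and 11.2 CPM, 2 of 6 other inhibitors past 2-fold and both higher. Of 10 targets, *Nkd2* (7.93 and 39.5 CPM) and *Ccn5* (91.2 and 340.4 CPM) were past 2-fold higher, and *Ccn4* was the highest at 707 and 644 CPM.

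In tendon-like cells none of 2 ligands was past 2-fold, with *Wnt9a* the highest at 48.7 and 66.6 CPM, where 7.35% of all genes were. Past 2-fold lower were the receptors *Lrp5* (78.2 and 37.6 CPM) and *Lrp4* (26.3 and 12.9 CPM) of 13, the inhibitors *Apcdd1* (47.1 and 21.1 CPM) and *Shisa2* (31.1 and 14.2 CPM) of 5, and the targets *Ccn4* (235 and 74.4 CPM) and *Bambi* (48.7 and 13.8 CPM) of 5. *Lrp6* was the highest receptor at 289.5 and 271 CPM, and *Ccn5* the highest target at 527 and 264 CPM. In fibroblast-like cells *Wnt10b* (49.5 and 14.5 CPM), *Wnt2* (20.03 and 6.47 CPM) and *Wnt5b* (4.90 and 2.27 CPM) of 10 ligands were past 2-fold lower, as were *Shisa2* (5.66 and 2.72 CPM) of 7 inhibitors and *Nkd1* (14.7 and 7.15 CPM) of 7 targets, while *Fzd6* of 16 receptors was higher at 2.72 and 5.90 CPM, beside 3.83% of all genes. *Wnt2* was among the leading genes of the unnamed *Slurp1*-led *Piezo1* fl/fl cluster, which is not in this class, whereas control cells with *Slurp1* among their leading genes are in it, so that the class is not alike in the 2 libraries. *Igfbp4* was the highest of the other inhibitors at 1724 and 1970.0 CPM, *Wnt5a* the highest ligand at 68.7 and 75.0 CPM, and *Lrp6* the highest receptor at 258 and 279 CPM.

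Measures of cell quality differed between the libraries in some classes. The immediate early and heat shock genes that dissociation induces summed to 14197 and 18315 CPM in SSPC-1-like and 15682 and 20377 CPM in fibroblast-like cells, led by *Fos*. Their sums were 13759 and 13667 CPM in tendon-like and 10489.9 and 11051 CPM in SSPC-2-like cells, with all 11 genes found in each. Median mitochondrial shares were 5.77% and 5.36% in SSPC-1-like cells and 5.35% and 5.08% in tendon-like cells. Macrophage markers summed to 41.5 and 50.9 CPM in tendon-like cells and 60.7 and 42.6 CPM in fibroblast-like cells, led by C1q genes. Their part in the ratios of the inhibitors was not tested.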

How the data were processed

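Whole-transcriptome single-cell libraries were analysed, 1 per genotype. Per the labels, the authors' processing notes name fastp, UMI-tools, STAR and Seurat 4.0.3; genome build, annotation and strand are not given in the sources used here. The deposited values are whole-number UMI counts per gene and barcode, without normalization, from 501 (control) and 502 (*Piezo1* fl/fl) UMIs per barcode upward.

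A cell was kept if it had 1000 to 5000 genes and if mitochondrial UMIs made up less than 25%. Scrublet (scanpy 1.11.5, expected rate 0.05) removed 46 control doublets (0.829%) and 67 *Piezo1* fl/fl doublets (0.988%). Seurat 5.3.0 clustered each library alone (LogNormalize, 2000 vst features less the 10 genes and the Wnt list, which left 1966 and 1972, 20 of 30 principal components, Louvain resolution 0.4). Clusters were named by the class whose markers had the largest average log2 ratio over the median of the other clusters. Among marker lists within 1 log2 unit of the largest, the average ratio over the other clusters pooled decided. A name needed at least 3 detected markers and no more leading genes of another class than of its own. UMIs were summed per class, and levels, ratios and shares carry exact Poisson, conditional and Clopper-Pearson 95% intervals. A count of 0 was read against 3 UMIs. Named genes were all 10 inhibitors, their 3 most alike genes, and those Wnt genes that were the highest of their role or past 2-fold. The 10 genes, the lists and the marker sets were chosen with earlier results of these data known. Gene positions are from GENCODE vM21 (GRCm38), matched by gene identifier. Alternatives numbered 11 planned and 1 added later.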

Additional observations from a re-analysis of the deposited data

Results flagged for a closer look

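*Wif1* was singled out because its ratio between the libraries had opposite signs in different classes. Its log2 ratio, *Piezo1* fl/fl over control, was 2.36 in SSPC-2-like cells, −2.97 in tendon-like cells and −3.31 in fibroblast-like cells. With 1 library per genotype the difference between classes was not tested. The SSPC-2-like value rests on 18 control and 59 *Piezo1* fl/fl UMIs, and with cells typed alone it was 8 against 0 UMIs, while the preosteoblasts split off by this typing had 21 against 42 UMIs (log2 ratio 1.23, 0.44 to 2.06). The preosteoblast UMIs lay in 13 of 200 control and 9 of 159 *Piezo1* fl/fl cells, a share that was not higher (6.5% and 5.66%). Most control UMIs of the fibroblast-like class (158 of 228) lay in 15 chondrocyte-typed cells.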

How the results depend on the processing

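No paired analysis was possible because each genotype has 1 library. Under the 10 other settings that gave them, 4 genes highest in the same class in both libraries became 3 to 6, and the 12 of 31 pairs past 2-fold became 8 to 15 under 10, of 20 to 45 pairs with enough UMIs, and 18 of 31 past 1.5-fold. No share of all genes is given beside these counts, which describe only how they move with the settings. The 2 genes whose highest class was at least 2-fold above the next became 1 at resolution 0.8, 1 under 10% mitochondrial UMIs and 1 when each cell was typed by its own marker counts, and 3 with 500 to 6000 genes per cell and with the inhibitors and Wnt genes among the features. The log2 ratio between libraries of *Frzb* in fibroblast-like cells turned positive at resolution 0.2 (0.67), at resolution 0.8 (0.19), with 500 to 6000 genes per cell (0.74), with called doublets kept (0.39), with the inhibitors and Wnt genes among the features (0.24) and with cells typed alone (0.35). That of *Wif1* in SSPC-2-like cells was −0.86 with called doublets kept. With cells typed alone, SSPC-1 over tendon was −0.56 for *Sfrp2* in the control and −1.09 for *Wif1* in the *Piezo1* fl/fl library. In that library fibroblast-like over tendon-like was −0.16 for *Dkk2* and −0.068 for *Sfrp4* at resolution 0.8, and −0.16 and −0.083 under 10% mitochondrial UMIs. The causes were not tested. The ratios kept their direction and stayed past 2-fold under every setting that gave them for *Sfrp4* in SSPC-2-like (1.60 to 2.02) and fibroblast-like cells (1.35 to 2.17), *Wif1* in tendon-like cells (−3.50 to −1.48), *Sfrp1* in tendon-like cells (1.09 to 3.94) and *Frzb* in SSPC-2-like cells (−2.78 to −1.67). So did that of *Wif1* in fibroblast-like cells, but its size ranged from −3.55 to −1.28. *Sfrp4* in tendon-like cells ranged from 0.17 with cells typed alone to 6.67, and in mural-like cells from 0.36 to 2.94 (under 2-fold in 3 settings), while *Sfrp4* in lining-like cells (0.88 to 1.51) and *Dkk3* in endothelial-like cells (−1.43 to −0.95) fell under 2-fold in 2 settings and 1 setting. Resolution 0.2 gave no SSPC-1-like or SSPC-2-like class in the *Piezo1* fl/fl library and so no value there. The setting that counts the *Slurp1*-led cluster as fibroblast-like was chosen after seeing the data. *Sfrp5*, *Dkk1* and *Sost* had under 50 UMIs in at least 1 library and were not ranked.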
